A study of Mus musculus with 16 samples.

Results

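The imprinted growth regulators are 10 genes chosen by name from the deposited expression table, namely H19, Igf2, Cdkn1c, Meg3, Dlk1, Peg3, Plagl1, Mest, Grb10 and Snrpn. They were chosen with earlier results of these data known. All 10 were among the 27807 genes of the table, and all 10 passed the filter of a mean of at least 10 normalised counts over the 16 libraries, which 16124 genes passed. An imprinted gene is transcribed mainly from the copy inherited from 1 parent, because the parental copies carry different DNA methylation at a control region. Genes expressed from the paternal copy often promote growth and those expressed from the maternal copy often restrain it. Imprinted genes are highly expressed in embryo and placenta and are usually silenced as tissues mature, and the methylation that controls them can be lost or gained when embryonic stem cells are cultured.

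Poly-A RNA was sequenced from mouse embryonic stem (ES) cells and embryoid bodies, in 8 groups of 2 libraries. The genotypes were labelled Taf4+/+ (WT) and Taf4-/- (KO). The KO cells are homozygous for a null allele of Taf4a, which encodes a subunit of TFIID, the complex with which the TATA-binding protein reaches promoters. Each genotype was represented by 2 independent ES lines, derived from blastocysts of heterozygous crosses and kept on inactivated embryonic fibroblast feeders with LIF. The stages were ES cells, embryoid bodies before retinoic acid (EB4), embryoid bodies after the first day of retinoic acid (EB5) and embryoid bodies later in that treatment (EB8), in a protocol that leads to glutamatergic neurons. No age, sex or allele-specific information was used, so the level of a gene is the sum over both parental copies. The labels do not tie a replicate number to a line.

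The values are normalised read counts, that is, read counts after division by each library's size factor. Depth ran from 32631020 to 40711826 reads in ES libraries and from 22442118 to 27685306 reads in embryoid body libraries. Dlk1 at EB4 rests on the fewest reads, 33 to 63 per library, and a counting error of 12.6% to 17.4% per library, beside gaps between libraries of 1.14-fold in WT and 1.05-fold in KO, so counting limits it there. Taf4a itself lay between 1590.9 and 1959.6 in WT and between 1972.8 and 2400.0 in KO, which checks nothing, since a count over the whole gene also takes the exons outside the deleted part. The labels call the EB8 cells neural precursors, and the markers fit that name in WT more than in KO. The summed level of 9 pluripotency genes was 1735 and 2322 in WT against 30473 and 36164 in KO, and that of 11 measured neural genes was 39408 and 37994 against 4697 and 4352, so each WT to KO comparison at EB8 is also a comparison of different cell states. Fewer cells of a type and less RNA per cell cannot be told apart in these bulk samples. Libraries are treated as replicates of a group, and p-values measure the spread between them.

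H19, at chr7:149761434-149764048 on the minus strand of build NCBI37, is a noncoding RNA of the maternal copy, and Igf2, at chr7:149836673-149852721 on the same strand, encodes the growth factor IGF2 and is expressed from the paternal copy. Both lie in 1 domain at the distal end of chromosome 7 and share enhancers. Each transcript unit also holds a microRNA. The mature sequences are given here because they are the small RNAs encoded by H19 and Igf2, the members with the highest level per kilobase at EB8. They are from RefSeq on build GRCm38.p6, and capitals mark the seed, bases 2 to 8 counted from the 5′ end.
miR-675-5p, chr7:142577112-142577133, minus strand: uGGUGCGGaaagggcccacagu
miR-675-3p, chr7:142577078-142577099, minus strand: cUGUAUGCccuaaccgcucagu
miR-483-5p, chr7:142654968-142654989, minus strand: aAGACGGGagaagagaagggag
miR-483-3p, chr7:142654932-142654952, minus strand: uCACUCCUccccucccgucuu
The 8 mature microRNAs of 4 host genes found in RefSeq, which also include those of Meg3 and Mest, had 8 different seeds. Poly-A libraries do not measure mature microRNAs, so no level is given for them.

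The promoters of 4 members are shown for their bearing on the comparisons. Meg3 and Dlk1 are neighbours, of which Dlk1 rose from EB4 to EB8 in both genotypes while the change of Meg3 did not pass. Plagl1 had the largest difference between genotypes that passed the test. Peg3 carries a match to part of the site known for the Plagl1 protein. Each line gives the 250 bases before a RefSeq transcript start on GRCm38.p6, read along the gene, and capitals mark TATAAA or GGGGCCC on either strand.
Meg3, chr12:109540746-109540995, plus strand: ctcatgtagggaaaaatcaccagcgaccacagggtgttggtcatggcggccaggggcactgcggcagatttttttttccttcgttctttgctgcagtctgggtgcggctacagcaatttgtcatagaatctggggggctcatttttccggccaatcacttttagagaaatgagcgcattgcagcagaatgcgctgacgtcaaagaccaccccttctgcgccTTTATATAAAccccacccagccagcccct
Dlk1, chr12:109452573-109452822, plus strand: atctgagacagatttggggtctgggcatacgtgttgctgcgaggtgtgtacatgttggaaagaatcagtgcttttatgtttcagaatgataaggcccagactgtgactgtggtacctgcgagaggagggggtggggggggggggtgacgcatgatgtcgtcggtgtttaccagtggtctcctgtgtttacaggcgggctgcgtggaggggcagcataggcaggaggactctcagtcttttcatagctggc
Plagl1, chr10:13090582-13090831, plus strand: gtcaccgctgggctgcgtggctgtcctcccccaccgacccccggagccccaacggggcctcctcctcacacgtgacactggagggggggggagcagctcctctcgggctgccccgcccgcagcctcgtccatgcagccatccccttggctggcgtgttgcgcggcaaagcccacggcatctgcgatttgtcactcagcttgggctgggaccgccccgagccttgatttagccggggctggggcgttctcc
Peg3, chr7:6730420-6730669, minus strand: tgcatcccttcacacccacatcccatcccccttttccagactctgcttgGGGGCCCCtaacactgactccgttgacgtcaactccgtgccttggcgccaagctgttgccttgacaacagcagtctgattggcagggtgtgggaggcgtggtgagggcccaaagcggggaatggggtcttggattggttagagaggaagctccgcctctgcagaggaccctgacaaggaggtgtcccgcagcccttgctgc
RefSeq windows were found for 8 of the 10 members, 18 windows in all, since some genes have several starts. H19 and Cdkn1c are not among them. TATAAA, the core of the site known for the TATA-binding protein, occurred in 2 of the 18 windows, against 12.4% of 32851 windows of all genes. In Meg3 it began 25 bases before the start on the gene's strand, and a match on the other strand began at 29 bases and overlaps it. TATAAA on the gene's strand between 40 and 21 bases before the start was found in 1.99% of all windows. The other match was in 1 of 4 Snrpn windows, 201 bases before the start and on the opposite strand. GGGGCCC was found in 3 windows, of Peg3, Mest and Grb10, against 5.69% of all windows. The Peg3 match reads on both strands at overlapping positions, 201 and 200 bases before the start. The CG dinucleotide count of the windows ran from 0 to 40 with a median of 8, against a median of 6 over all windows, and the highest was in Grb10, which 1.1% of all windows exceeded. These matches are a description of the sequence and say nothing of binding.

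H19 and Igf2 rose steeply from EB4 to EB8 in both genotypes. In WT, H19 stood at 2899.9 and 3439.9 normalised counts at EB4, 5607.4 and 4764.8 at EB5, and 29986.1 and 21487.8 at EB8. In KO it stood at 3466.2 and 4982.1, then 10189.2 and 7701.2, then 85490.8 and 37097.0. All 4 EB8 libraries lay above all 8 libraries of EB4 and EB5, by a wide margin. The log2 change from EB4 to EB8 was 3.01 ± 0.38 (SE, n = 2 against 2) in WT and 3.76 ± 0.38 in KO, with limma adjusted p of 0.000137 and 8.33e-05.

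Igf2 followed the same course with a larger fold. Its WT values were 851.6 and 3064.6 at EB4, 2987.6 and 5265.5 at EB5, and 24926.6 and 35455.2 at EB8. In KO they were 1285.1 and 1243.0, then 6027.1 and 2973.0, then 65188.2 and 35051.7. The EB8 libraries again stood above every earlier library. The log2 change from EB4 to EB8 was 4.20 ± 0.56 in WT (limma adjusted p 0.000188) and 5.24 ± 0.56 in KO (limma adjusted p 0.000115). Together H19 and Igf2 took 0.203% and 0.216% of all reads at EB8 in WT, with 0.629% and 0.302% in KO, against 0.00549% to 0.0154% in the 4 ES libraries. In KO EB8 replicate 1, H19 was the 5th and Igf2 the 9th most counted gene of the table.

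**Figure D1:**
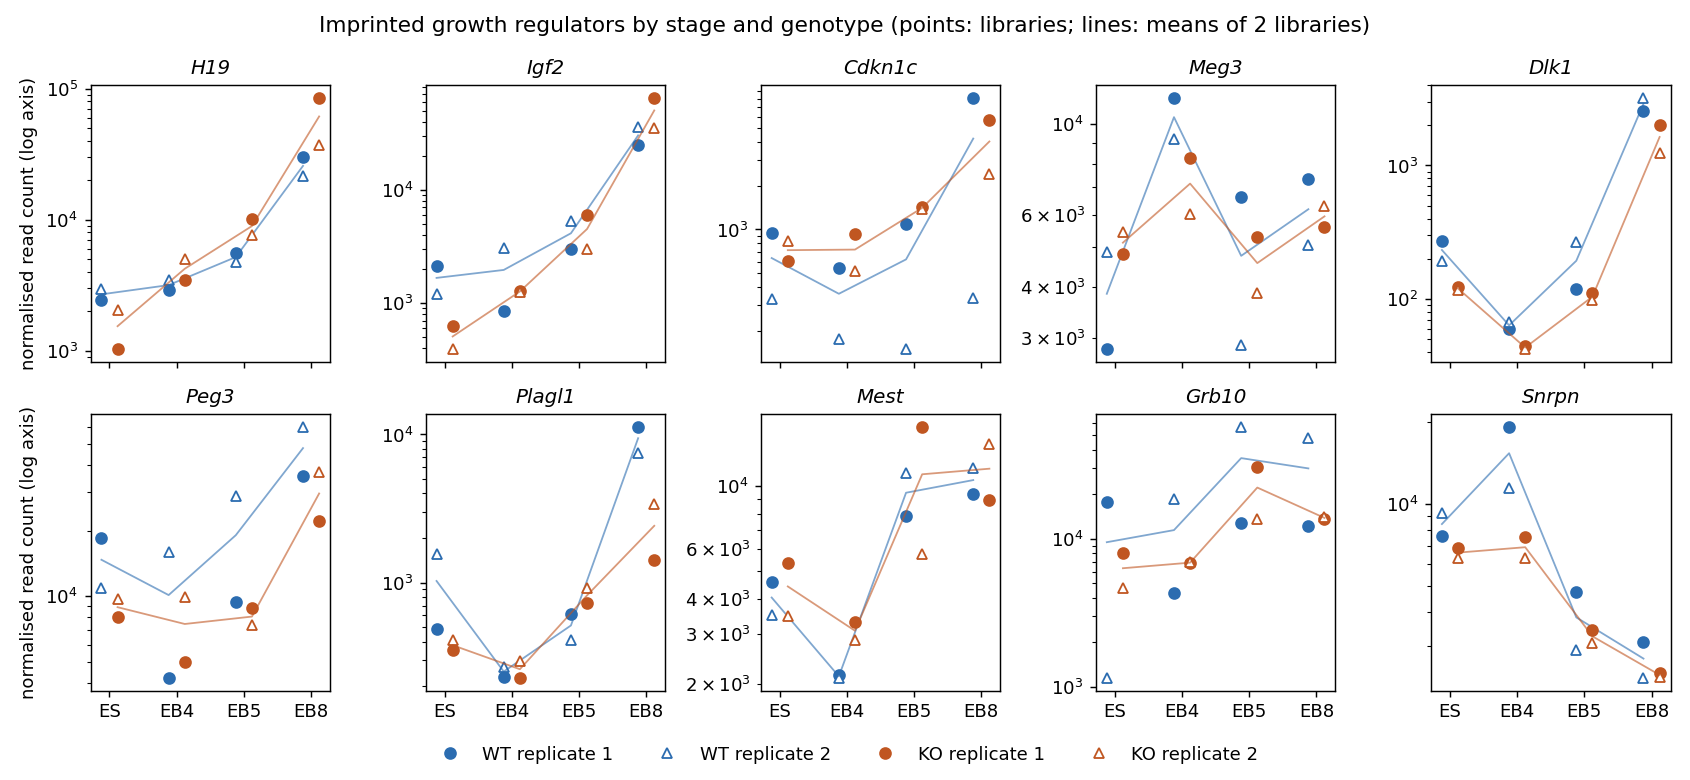
Normalised read count (vertical log axis, a scale of its own for each gene) of the 10 imprinted growth regulators at the 4 stages (horizontal axis), with a point for each library and lines through the means of 2 libraries. H19, Igf2, Dlk1, Peg3 and Plagl1 climb to EB8 in both genotypes, Snrpn descends, and the points of Cdkn1c and Grb10 in WT lie far apart within a stage.

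Dlk1 and Plagl1 rose from the lowest levels. Dlk1 (chr12:110691033-110701546, plus strand) encodes a membrane protein related to Notch ligands and is expressed from the paternal copy. It stood at 59.2 and 67.6 in WT EB4 and at 2562.3 and 3228.2 in WT EB8, and at 44.4 and 42.1 in KO EB4 and 2018.3 and 1249.5 in KO EB8. No EB8 library came near an EB4 library, and the log2 change was 5.49 ± 0.37 in WT (limma adjusted p 1.66e-06) and 5.17 ± 0.37 in KO (limma adjusted p 1.38e-05). Plagl1 (chr10:12810497-12851500, plus strand), also paternal, encodes a zinc finger transcription factor that restrains proliferation and is known to regulate other imprinted genes. It went from 230.2 and 271.3 to 11319.2 and 7548.0 in WT and from 226.6 and 293.5 to 1417.0 and 3417.3 in KO. The EB4 libraries of both genotypes lay close together, while the EB8 libraries did not. The log2 change was 5.20 ± 0.49 in WT and 3.09 ± 0.49 in KO, with limma adjusted p of 1.75e-05 and 0.00165.

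Peg3 and Mest, both expressed from the paternal copy, rose less. Peg3 (chr7:6656603-6683132, minus strand) encodes a zinc finger protein involved in growth and maternal behaviour. Its WT libraries went from 4216.2 and 16064.1 at EB4 to 35634.6 and 60251.7 at EB8, and its KO libraries from 4973.2 and 9965.4 to 22295.6 and 37056.5. The stages did not overlap within either genotype, but the WT EB4 libraries differed 3.81-fold from each other. The log2 change was 2.49 ± 0.62 (limma adjusted p 0.0104) in WT and 2.03 ± 0.62 (limma adjusted p 0.0395) in KO. The WT call was lost without WT EB4 replicate 1 (log2 change 1.53, limma adjusted p 0.121) or WT EB8 replicate 2 (2.11, 0.0867), and the KO call without any 1 of its 4 libraries (log2 changes from 1.53 to 2.53).

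Mest (chr6:30673547-30698457, plus strand), a member of the alpha/beta hydrolase fold family, had most of its rise by EB5. Its WT libraries held 2153.6 and 2094.2 at EB4, 7841.3 and 11152.6 at EB5 and 9420.6 and 11637.0 at EB8. In KO the values were 3301.5 and 2859.8, then 16299.7 and 5779.3, then 8961.7 and 14146.4. In both genotypes the EB5 and EB8 libraries overlapped, and all lay above EB4. From EB4 to EB8 the log2 change was 2.30 ± 0.40 in WT (limma adjusted p 0.00118) and 1.87 ± 0.40 in KO (limma adjusted p 0.00777), and the KO call was lost without KO EB4 replicate 2 (1.77, 0.0542) or KO EB8 replicate 2 (1.54, 0.0665). Reads of Copg2, an opposite gene that shares 904 exon bases with Mest, cannot be separated, since the library kit does not mark strand.

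Snrpn went the other way. Snrpn (chr7:67127388-67285105, minus strand), a paternal gene of the Prader-Willi region, encodes a protein of the spliceosome's small ribonucleoproteins. Its WT values were 19300.1 and 11461.8 at EB4, 4741.7 and 2889.2 at EB5 and 3098.9 and 2278.5 at EB8. The KO values were 7524.7 and 6323.3, then 3440.7 and 3056.4, then 2375.0 and 2305.2. The EB4 libraries were the highest of the embryoid bodies in both genotypes, and most of the drop was between EB4 and EB5. From EB4 to EB8 the log2 change was -2.48 ± 0.27 in WT (limma adjusted p 4.24e-05) and -1.56 ± 0.27 in KO (limma adjusted p 0.00245).

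In all, 7 of the 10 members passed the test from EB4 to EB8 in WT, 6 higher and 1 lower. Of all tested genes 27.2% passed, 15% higher and 12.2% lower. In KO 7 members passed, against 18.5% of all genes (9.86% higher and 8.67% lower), and they were the same 7 with the same directions. The median log2 change of the 10 members was 2.46 in WT and 2.22 in KO, beside -0.011 and 0.008 over all genes. The members were chosen with earlier results of these data known, so these counts and medians beside all genes are only a description. The change did not pass the test of a difference between genotypes for any of the 10 by limma, edgeR or DESeq2, while 2.75% of all genes passed by limma. An unadjusted p below 0.05 was found for 2 members and for 2658 of 16124 genes. The values nearest to the threshold were those of Plagl1, whose rise was 2.12 ± 0.70 log2 units smaller in KO (limma adjusted p 0.138), and Snrpn, whose fall was 0.92 ± 0.38 smaller (limma adjusted p 0.237). For Igf2 the difference was 1.04 with a 95% interval from -0.67 to 2.75, which holds differences of either sign.

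**Figure D2:**
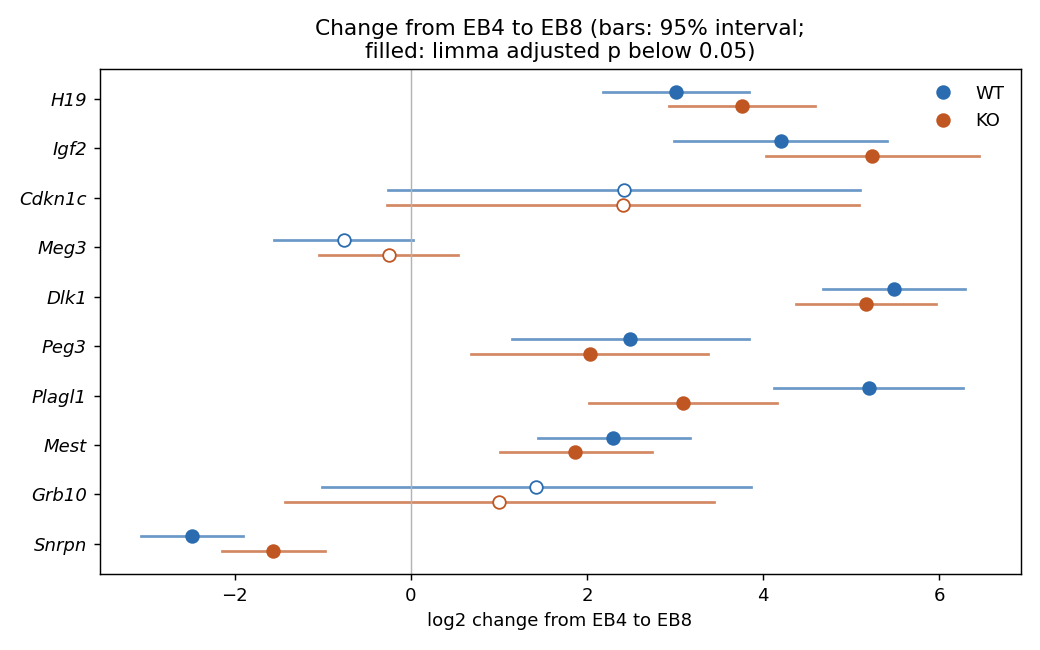
Log2 change from EB4 to EB8 (horizontal axis) of each of the 10 genes in WT and KO, with 95% intervals from the limma fit and filled points where the adjusted p was below 0.05. H19, Igf2, Dlk1, Peg3, Plagl1 and Mest lie to the right of 0 and Snrpn to the left in both genotypes, and the intervals of Cdkn1c and Grb10 span several log2 units.

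Meg3, Cdkn1c and Grb10 did not pass from EB4 to EB8 by limma. Meg3 (chr12:110779211-110809936, plus strand), a maternal noncoding RNA of the Dlk1 domain, stood at 11582.2 and 9168.1 in WT EB4 and at 7322.5 and 5059.9 in WT EB8, with 8271.2 and 6023.4 in KO EB4 and 5590.8 and 6306.2 in KO EB8. The WT stages did not overlap and the KO stages did, with log2 changes of -0.76 ± 0.36 (limma adjusted p 0.143) and -0.25 ± 0.36 (limma adjusted p 0.678). The ratio of Dlk1 to Meg3 counts, not corrected for length, therefore went from 0.00511 and 0.00737 at WT EB4 to 0.35 and 0.638 at WT EB8, and from 0.00537 and 0.00699 to 0.361 and 0.198 in KO. Reads of Gm17639, on the strand opposite to Meg3 and sharing 1228 exon bases with it, are not separated.

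Cdkn1c and Grb10 had the widest errors of the 10 members. Cdkn1c (chr7:150644255-150646955, minus strand), an inhibitor of cyclin-dependent kinases expressed from the maternal copy, had a log2 change from EB4 to EB8 of 2.42 ± 1.23 in WT and 2.41 ± 1.23 in KO (limma adjusted p 0.168 and 0.198). Leaving out 1 WT library moved the WT value from 0.12 (without EB8 replicate 1) to 4.72 (without EB8 replicate 2, limma adjusted p 0.0109), and DESeq2 called it (3.55, adjusted p 0.0159). With only the compared groups the KO change passed (limma adjusted p 0.0438). Grb10 (chr11:11830511-11938686, minus strand), an adaptor that dampens insulin and IGF receptor signalling, is expressed from the maternal copy in most tissues and from the paternal copy in neurons. Its changes were 1.42 ± 1.12 and 1.00 ± 1.12 (limma adjusted p 0.379 and 0.576). The WT value ran from 0.38 to 2.47 without 1 library, and the KO value passed with only the compared groups (limma adjusted p 0.0177). The within-group differences of both genes are described further on.

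From ES cells to EB4, before retinoic acid, 3 of 10 members passed in WT, 1 higher and 2 lower, and 16.5% of all genes did (8.98% higher, 7.57% lower). Meg3 rose from 2826.1 and 4881.0 to 11582.2 and 9168.1 (log2 change 1.47 ± 0.36, limma adjusted p 0.0176). Dlk1 fell from 274.0 and 191.3 to 59.2 and 67.6 (-1.84 ± 0.37, limma adjusted p 0.00699), and Plagl1 from 489.7 and 1561.1 to 230.2 and 271.3 (-1.80 ± 0.49, limma adjusted p 0.0272). In each of these 3 genes the stages did not overlap, although the ES libraries of Plagl1 differed 3.18-fold. The call of Meg3 was lost without WT EB4 replicate 1 (1.30, limma adjusted p 0.0913) or WT ES replicate 1 (1.08, 0.108). That of Plagl1 was lost without WT EB4 replicate 1 (-1.68, limma adjusted p 0.109), WT EB4 replicate 2 (-1.92, 0.0835) or WT ES replicate 2 (-0.97, 0.186). Snrpn stood just outside, at 7609.0 and 9248.5 in ES cells and 19300.1 and 11461.8 at EB4 (0.83 ± 0.27, limma adjusted p 0.0527). It passed by edgeR (adjusted p 0.0484) and DESeq2 (adjusted p 0.0173), and by limma with a mean of at least 50 (0.0481), with an estimated correlation (0.0246) or without WT EB4 replicate 2 (1.20, 0.0266).

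In KO 0 of 10 members passed from ES to EB4 by limma, 0 by edgeR and 2 by DESeq2, and 3.5% of all genes passed by limma. An unadjusted p below 0.05 was found for 3 members and for 3443 of 16124 genes. H19 was closest, at 1030.2 and 2049.8 in ES cells and 3466.2 and 4982.1 at EB4 (1.52 ± 0.38, limma adjusted p 0.0502), and DESeq2 called it. Dlk1 stood at 122.9 and 116.5 and then at 44.4 and 42.1 (-1.45 ± 0.37, limma adjusted p 0.0517), and was the other gene called by DESeq2. Whether the change differed between genotypes did not pass for any member by limma, edgeR or DESeq2, nor by limma for any gene of the table (0%). An unadjusted p below 0.05 was found for 1 member and for 1129 of 16124 genes. For H19 the difference was 1.28 ± 0.54 (limma adjusted p 0.699).

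KO was compared with WT at each stage to ask which of these genes depend on Taf4. In ES cells 0 of 10 members passed by limma, 0 by edgeR and 1, Igf2, by DESeq2 (adjusted p 0.0481), and 0% of all genes passed by limma. At an unadjusted p below 0.05 there were 4 members, all lower in KO on the log2 scale, beside 1846 of 16124 genes in either direction. Igf2 stood at 2128.9 and 1202.3 in WT against 621.0 and 391.7 in KO, a difference of -1.70 ± 0.56 log2 units (limma adjusted p 0.254). Plagl1 stood at 489.7 and 1561.1 against 348.7 and 406.7 (-1.21 ± 0.49, limma adjusted p 0.372), and leaving out WT ES replicate 1 or 2 moved its change to -2.05 or -0.38. H19 stood at 2433.8 and 2956.3 against 1030.2 and 2049.8 (-0.88 ± 0.38, limma adjusted p 0.406), and Dlk1 at 274.0 and 191.3 against 122.9 and 116.5 (-0.93 ± 0.37, limma adjusted p 0.362).

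In all 4 genes both KO libraries lay below both WT libraries. Of the 10 members 6 were arranged so in ES cells, with Peg3 and Snrpn beside these 4, and 20.7% of all tested genes were. This share counts 1 direction only, unlike the shares in either direction given for the later stages, and that direction was taken from the members' own values. The 6 of 10 beside it is therefore only a description. Fibroblast markers had lower sums in KO ES cells, although none of the 13 tested passed by limma. The summed level of 15 fibroblast markers was 3849 and 5951 in the WT ES libraries and 1106 and 1279 in KO, with 12 and 14 of the 15 above 10 normalised counts in the WT libraries, as against 8 and 12 in KO. Col1a1, a main collagen of fibroblasts, stood at 661.7 and 1451.1 in WT and 118.7 and 170.1 in KO, while Lum was below 1 in all 4 libraries. The sum of trophoblast markers was 13185 and 9470 in WT ES cells against 7143 and 3804 in KO, and that of endoderm markers 12642 and 14171 against 9439 and 7925. Most of the endoderm sum was Sparc (10162.9 and 12850.6 in WT, 6436.1 and 5425.4 in KO), while Lama1 was higher in KO (2811.7 and 2192.0 against 1768.5 and 849.1). ES cells were grown on fibroblast feeders, and the part of the cells that carry these 3 marker sets in the ES values of the members was not tested.

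At EB4 1 of 10 members passed, as lower, and 6.12% of all genes did (3.37% as lower). Snrpn was lower in KO, with 7524.7 and 6323.3 against 19300.1 and 11461.8 in WT. Both KO libraries lay below both WT libraries, but the WT libraries differed by more than the KO libraries did. The log2 change was -1.11 ± 0.27 (limma adjusted p 0.0337), and the call was lost without WT EB4 replicate 1 (-0.73, 0.186), KO EB4 replicate 1 (-1.23, 0.0594) or KO EB4 replicate 2 (-0.98, 0.259). Meg3, with both KO libraries below both WT libraries too, changed by -0.55 ± 0.36 on the log2 scale without passing (limma adjusted p 0.403), and Mest, with both above, 0.53 ± 0.40 (limma adjusted p 0.461). Non-overlap in either direction held for 5 members, against 51.9% of all genes.

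At EB5 0 of 10 members passed by limma, edgeR or DESeq2, and 4.34% of all genes passed by limma. An unadjusted p below 0.05 was found for 0 members and for 3342 of 16124 genes. The widest differences were those of Cdkn1c (1.80 ± 1.23), Peg3 (-1.03 ± 0.62), H19 (0.78 ± 0.38) and Dlk1 (-0.78 ± 0.37), with limma adjusted p from 0.254 to 0.445. H19 stood at 5607.4 and 4764.8 in WT and 10189.2 and 7701.2 in KO, so its groups did not overlap. Snrpn, the gene called at EB4, now stood at 4741.7 and 2889.2 against 3440.7 and 3056.4, and its groups overlapped (-0.19 ± 0.27, limma adjusted p 0.73). Non-overlap held for 5 members, against 54.9% of all genes.

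At EB8 2 of 10 members passed, 1 in each direction, and 22.9% of all genes did (10.4% higher, 12.5% lower). Plagl1 was lower in KO. It stood at 11319.2 and 7548.0 in WT and 1417.0 and 3417.3 in KO, so that the higher KO library was under the lower WT library. The ratio of the means was 3.90-fold, and the log2 change -2.07 ± 0.49 (limma adjusted p 0.0102). The call was lost without WT EB8 replicate 1 (-1.78, 0.0756) or KO EB8 replicate 1 (-1.44, 0.102), and over all alternatives the adjusted p ran from 0.000525 to 0.102. The summed neural level moved with Plagl1 at EB8, being lower in both KO libraries as given above, and its part in the difference was not tested.

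H19 was higher in KO at EB8. It stood at 85490.8 and 37097.0 in KO and 29986.1 and 21487.8 in WT, 2.38-fold by the means, without overlap. KO replicate 1 was the highest of the 16 libraries, and the difference between the KO libraries was 2.30-fold. The log2 change was 1.15 ± 0.38 (limma adjusted p 0.047), and other settings gave adjusted p from 0.00832 to 0.372. The call was lost without KO replicate 1 (0.55, 0.372), WT replicate 1 (1.39, 0.0718) or WT replicate 2 (0.91, 0.234). It was also lost with a pseudocount of 0.1 (limma adjusted p 0.0509), no filter on low values (0.0727), only the compared groups (0.101) or an estimated correlation (0.0605). Igf2, with 65188.2 and 35051.7 in KO and 24926.6 and 35455.2 in WT, overlapped between genotypes (0.69 ± 0.56, limma adjusted p 0.407).

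Trophoblast markers were also highest in KO EB8 replicate 1. The sum over the 10 listed was 16566 there, 5290 in KO replicate 2 and 8825 and 6030 in WT, with 8 of 10 above 10 normalised counts in KO and 7 of 10 in WT. Hand1, which is also in the mesoderm list, was 600.3 and Krt7, a keratin of trophoblast and other epithelia, 2812.8 in that library. Krt8, the largest part of the sum, was 8369.8 there and 7530.4 in WT EB8 replicate 1. Of the 8 tested trophoblast genes, 3 were called higher in KO at EB8 and 0 lower, against 10.4% of all genes higher. They were Tfap2c (3.50 ± 0.52), Gcm1 (3.19 ± 0.83) and Ascl2 (2.77 ± 0.68). These 3 were also expressed in WT ES cells, Tfap2c at 1874.9 and 4861.8, Gcm1 at 84.6 and 27.9 and Ascl2 at 158.4 and 134.7. Elf5 overlapped between genotypes, with 88.6 and 56.5 in KO EB8 and 48.3 and 154.6 in WT EB8. Tpbpa and Prl3d1, markers of spongiotrophoblast and trophoblast giant cells, were at or below 3.2 in both KO libraries. The sum of 14 endoderm markers was 8345 and 10006 in KO EB8 and 13468 and 11997 in WT EB8. Most of it was Sparc, higher in KO (6063.5 and 7455.6 against 5760.9 and 4872.5), and Lama1, lower in KO (835.6 and 1017.3 against 4793.8 and 4946.6). Afp, Ttr and Apoa1, secreted by visceral endoderm, were at most 6.3 in KO EB8. The sum of 12 mesoderm markers was 2776 and 3217 in KO EB8 and 1348 and 2599 in WT EB8. Of the 10 mesoderm markers tested, 2 were called higher in KO and 0 lower, against 10.4% of all genes higher. The part of trophoblast, endoderm or mesoderm cells in the H19 and Igf2 levels was not tested. 

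Dlk1 did not pass at EB8. Its values were 2562.3 and 3228.2 in WT and 2018.3 and 1249.5 in KO, with no overlap (-0.86 ± 0.37, limma adjusted p 0.114). KO lay below WT at all 4 stages for Dlk1, although the difference did not pass at any of them. Cdkn1c had a positive log2 change (1.16 ± 1.23) with a KO mean below the WT mean, because 1 WT library was very high and the other very low. It passed without WT EB8 replicate 1 (3.45, limma adjusted p 0.0462) and turned to -1.14 without WT EB8 replicate 2, so its direction depends on which WT library is used. Non-overlap at EB8 held for 3 members, H19, Plagl1 and Dlk1, against 63.9% of all genes. Under upper-quartile rescaling the median over all genes at EB8 went from -0.029 to 0.111, and both calls kept their direction.

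**Figure D3:**
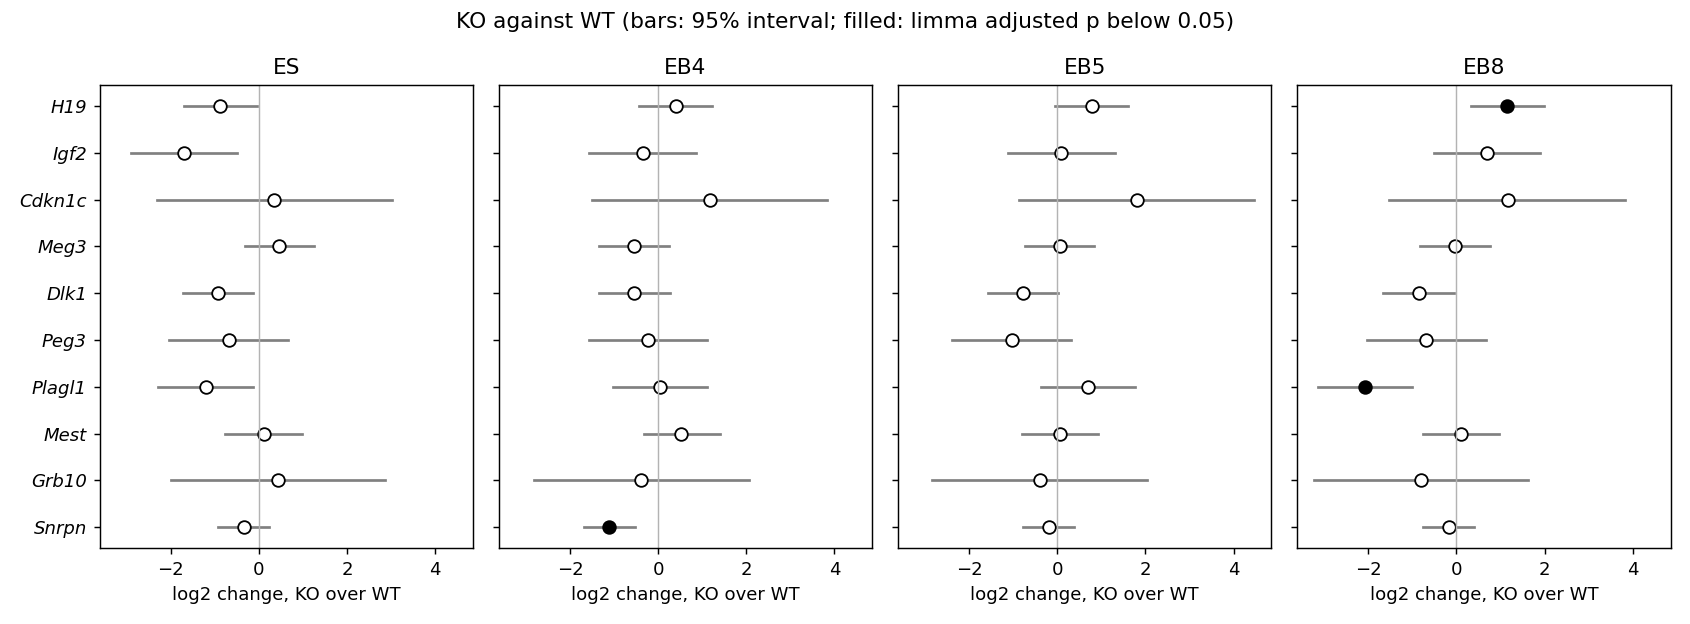
Log2 change of KO over WT (horizontal axis) for the 10 genes at each of the 4 stages, with 95% intervals from the limma fit and filled points where the adjusted p was below 0.05. The filled points are Snrpn at EB4, and H19 (right of 0) and Plagl1 (left of 0) at EB8, while the intervals of Cdkn1c and Grb10 reach across 0 at every stage.

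Per kilobase of exon, the order of the members changed with stage. Snrpn was the highest in ES cells and at EB4 in both genotypes, with 3836.5 and 7000.9 normalised counts per kilobase in WT (means of 2 libraries) and 3010.2 and 3151.6 in KO. At EB8 it was the eighth in WT and the seventh in KO. H19 was the highest at EB8 in both, at 10850.3 in WT and 25840.6 in KO, followed by Igf2 at 5496.2 and 9124.3. Dlk1 was the lowest in ES cells, EB4 and EB5, between 7.65 and 41.1. Neighbours in this order, such as Peg3, Mest, Grb10 and H19 in WT ES cells, from 1026.1 to 1136.2 per kilobase, lay closer than the libraries of a group.

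The genes with the most similar levels were found by Pearson's r of log2(normalised count + 1) over the 16 libraries, among all tested genes. The libraries share stages and lines, so r is a description. For Igf2 it was Igf2as (r 0.984), which lies on the opposite strand, shares 98 exon bases with Igf2 and cannot be separated from it there. H19 was most like Pag1 (0.950) and had r = 0.94 with Igf2. Snrpn was most like Ly6e (0.966), with Dnmt3b (0.934) also among its nearest 3, the de novo methyltransferase of early embryonic cells. Meg3 had the weakest best match of the 10, Tbca (0.784), followed by Rian (0.776), the maternal noncoding RNA of the same domain. Dlk1 was most like Upk3b (0.949), Plagl1 like S1pr1 (0.933), Peg3 like Ccdc80 (0.945), Mest like Ppbp (0.947), Grb10 like AI597479 (0.930) and Cdkn1c like Fbxo2 (0.876). No other member was among the 3 genes most like any of them.

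Cdkn1c and Grb10 differed more between the libraries of some WT groups than nearly all other genes. Cdkn1c was higher in replicate 1 of every WT group, at 940.2 and 329.3 in ES cells, 544.7 and 174.8 at EB4, 1093.4 and 149.3 at EB5, and 8145.8 and 336.7 at EB8. The gap widened to 24.1-fold at EB8, which 0.533% of tested genes exceeded in that group. In KO the libraries were never more than 2.37-fold apart, with 5696.3 and 2401.1 at EB8. WT EB8 replicate 2 was the single EB8 library below 2401.1.

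Of 7 listed maternal genes near Cdkn1c on distal chromosome 7, 4 (Phlda2, Slc22a18, Ascl2 and Kcnq1) were also lower in replicate 2 of all 3 WT embryoid body groups. These were looked at after the Cdkn1c values were seen, and the share of all genes with this pattern was not counted. Kcnq1 rests on few reads, with 2.1, 3.3 and 4.2 normalised counts in replicate 2 of WT EB4, EB5 and EB8. Phlda2, which limits placental growth, stood at 429.6 and 59.0 at EB4, 324.6 and 42.8 at EB5 and 62.0 and 38.1 at EB8. Slc22a18, an organic cation transporter, stood at 55.5 and 7.7 at EB5 and 20.0 and 4.2 at EB8, and Ascl2, a transcription factor of trophoblast, at 64.9 and 17.6 and then 14.7 and 9.5. Cd81, Tssc4 and Osbpl5 had no one side. Cd81 stood at 4892.5 and 4741.2 and Tssc4 at 751.9 and 793.0 in WT EB8. The median deviation of 913 chromosome 7 genes from their mean over all libraries lay between -0.07 and 0.02 log2 units in the WT embryoid body libraries.

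Grb10 crossed over. WT ES replicate 1 held 17807.4 and replicate 2 1147.3, a 15.5-fold gap that 0.385% of genes exceeded. In the WT embryoid bodies replicate 2 was the higher, at 4330.2 and 18544.3 at EB4, 12806.9 and 57217.0 at EB5, and 12179.2 and 47489.2 at EB8, between 3.90-fold and 4.47-fold. The KO libraries lay at 7970.2 and 4678.5, 6867.0 and 6929.5, 30633.1 and 13671.6, and 13600.8 and 14040.9. At all 4 stages both KO libraries therefore fell between the WT libraries. In ES cells the log2 change of KO over WT was 0.43 ± 1.12 although the KO mean was lower, since 1 WT library was very low. The median deviation of 983 chromosome 11 genes from their mean over all libraries was 0.16 to 0.27 log2 units in replicate 1 of the KO groups and between -0.12 and 0.01 in all other libraries, and the part of this shift in the Grb10 values was not tested.

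Peg3 and Igf2 leaned to replicate 2 in the WT embryoid bodies as well. Of the 10 members, Dlk1, Grb10, Igf2 and Peg3 were higher in replicate 2 of all 3 WT embryoid body groups, and Cdkn1c, Meg3 and Snrpn were higher in replicate 1. The share of all genes that kept 1 side was not counted, so these counts are only a description. Over all tested genes the replicate differences of WT EB4 and WT EB8 correlated at 0.523. For Peg3 the gap was 3.81-fold at EB4, 3.05-fold at EB5 and 1.69-fold at EB8. Zim1, a maternal gene beside Peg3, was on the other side at EB8, with 889.4 in replicate 1 and 18.0 in replicate 2, and was also picked after its values were seen.

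**Figure D4:**
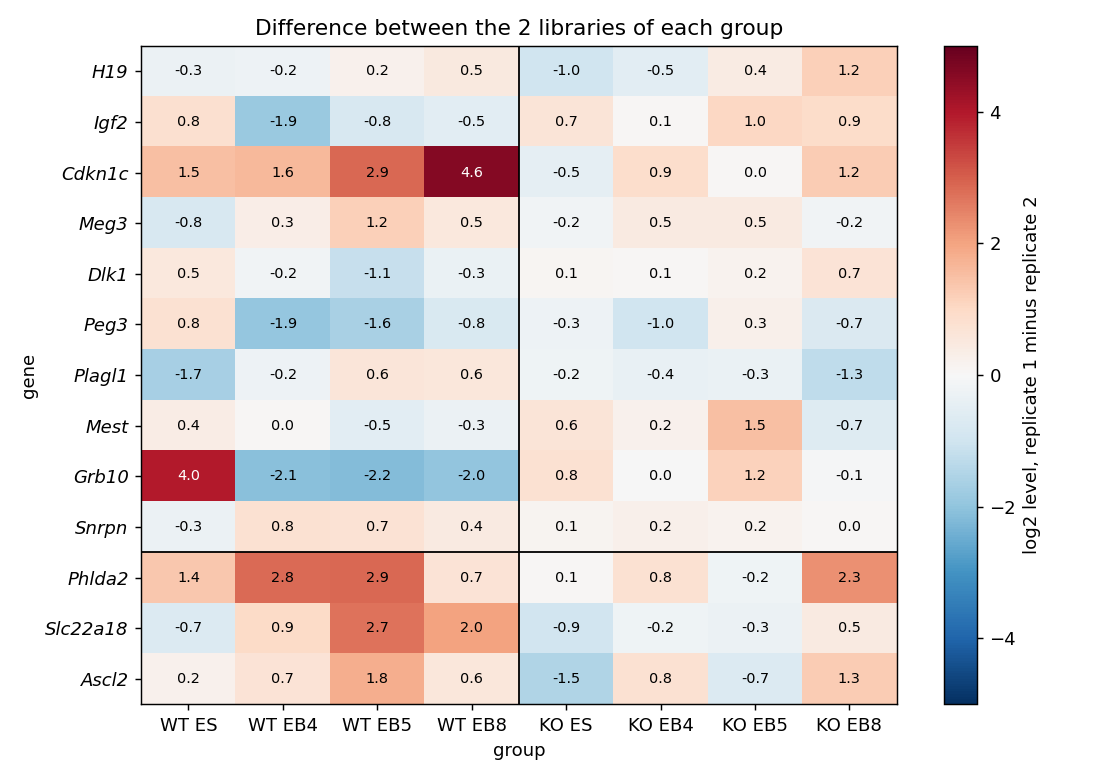
Log2 difference of replicate 1 minus replicate 2 (colour and printed value) in each of the 8 groups (columns) for the 10 members and, under the line, 3 neighbouring maternal genes of Cdkn1c chosen after their values were seen. Cdkn1c reaches 4.59 in WT EB8 and Grb10 goes from 3.95 in WT ES to -2.10 in WT EB4, while the KO columns are mostly paler.

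Other imprinted genes were listed by the parental copy they are known for, and no allele was measured in these cells. The 21 tested from the paternal list had a median log2 change of -0.40 at EB8, beside -0.029 over all genes. Of these, 6 were lower in KO and the rest did not pass, against 12.5% of all genes lower. The largest were Peg12 (1712.7 and 1293.8 in WT, 291.2 and 344.1 in KO, -2.23 ± 0.63, limma adjusted p 0.0231), Nnat, a membrane proteolipid of developing brain (-2.17 ± 0.53, 0.0112), and Sgce, the epsilon-sarcoglycan (1410.3 and 1922.7 against 444.2 and 398.4, -1.97 ± 0.32, 0.00113). Of 19 tested from the maternal list, 2 were higher and 2 lower, near the 22.9% called over all genes, with a median of 0.14. The higher ones were Slc22a18 (87.6 and 63.9 in KO, 20.0 and 4.2 in WT, 2.86 ± 0.83, limma adjusted p 0.0266) and Ascl2 (136.1 and 55.4 against 14.7 and 9.5, 2.77 ± 0.68, 0.0123), both near Cdkn1c. The Slc22a18 value of 4.2, in WT EB8 replicate 2, lay near the level of 3 reads (3.176 normalised counts). Ascl2 is also in the trophoblast list. The lower ones were Gnas, the stimulatory G protein (-1.14 ± 0.25, limma adjusted p 0.00736), and Ppp1r9a (-0.64 ± 0.19, 0.029).

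At the earlier stages 6.12% (EB4) and 4.34% (EB5) of all genes were called, with 543 and 350 of 16124 lower. Of the 21 paternal genes 2 were lower at EB4 and 2 at EB5, Sgce and Inpp5f at each, and of the 19 maternal genes 2 were lower at EB4 and 2 at EB5, Gnas at each with Calcr, the calcitonin receptor, at EB4 (-2.96 ± 0.79, limma adjusted p 0.0477) and Ppp1r9a at EB5 (-1.07 ± 0.19, 0.0135). From EB4 to EB8, 8 paternal genes rose and 2 fell in WT and 5 rose and 2 fell in KO, with medians of 0.74 and 0.69, against 15% higher and 12.2% lower of all genes in WT and 9.86% and 8.67% in KO. Igf2as (3.78 ± 0.49 in WT, 4.29 ± 0.49 in KO), Airn, the antisense RNA of the Igf2r domain (4.28 ± 0.79 and 3.13 ± 0.79), and Peg10 (1.75 ± 0.40 and 1.96 ± 0.40) rose in both. Igf2as shares 98 exon bases with Igf2, whose reads cannot be separated from it there, so its rise is not independent of that of Igf2. Of the maternal genes 1 rose and 4 fell in WT, and 2 rose and 1 fell in KO, with medians of 0.06 and 0.15.

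The genes of the IGF pathway list that passed between genotypes were lower in KO. Of 16 tested genes of the IGF pathway, 3 were lower at EB4, 1 at EB5 and 5 at EB8, and the rest did not pass. Over all genes 3.37% were lower at EB4 and 12.5% at EB8. At EB5 350 of 16124 genes were lower (4.34% called either way), and 1 of 16 is too few to tell from that share. The list had a median log2 change of -0.72 at EB8. Igfbp5, a secreted IGF-binding protein, stood at EB8 at 9761.9 and 6395.0 in WT against 1602.6 and 1071.6 in KO (-2.59 ± 0.62, limma adjusted p 0.0104). Irs1, the docking protein of the insulin and IGF receptors, stood at 799.1 and 1182.7 against 351.3 and 295.1 (-1.59 ± 0.52, limma adjusted p 0.0453). Igfbp4 stood at 5344.0 and 5807.4 against 1652.2 and 3082.8 (-1.30 ± 0.39, limma adjusted p 0.0315). For these 3 genes the groups did not overlap. The receptor gene Igf1r was lower at EB4 (-1.36 ± 0.28, limma adjusted p 0.0183) and at EB8 (-1.07 ± 0.28, 0.0158), while Igf2r, the clearance receptor of IGF2, held 8364.2 and 7834.9 at EB8 in WT against 9650.7 and 8222.6 in KO.

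Of 16 tested genes of the imprint maintenance list, 5 were higher in KO at EB4 and 3 at EB5. The list holds genes that keep methylation and also the Tet dioxygenases, which oxidise it, so these counts give no direction for methylation. Over all 16124 genes 443 and 350 were higher, with 6.12% and 4.34% called either way. At EB8 2 were higher and 2 lower, near the 22.9% of all genes. Dppa3, which protects methylation in the early embryo, stood at 1399.0 and 659.4 in KO EB8 and 16.8 and 101.6 in WT EB8 (4.49 ± 0.75, limma adjusted p 0.0014). Dnmt3l, the cofactor of the de novo methyltransferases, stood at 2206.1 and 1519.0 against 143.9 and 68.8 (4.19 ± 0.49, limma adjusted p 0.000178). Tet2, a methylcytosine dioxygenase, was higher in KO at EB4 (2.51 ± 0.32, limma adjusted p 0.00434). Zfp57, a zinc finger protein that keeps methylation at imprinted control regions, was higher in KO at EB4, with 4286.3 and 6976.7 against 1196.8 and 1647.0 (1.96 ± 0.34, limma adjusted p 0.0106). The lower ones at EB8 were Tet3 (-1.73 ± 0.49, limma adjusted p 0.0241) and Dnmt1 (-0.50 ± 0.16, 0.0373). These genes are also expressed by ES cells, whose markers were higher in the same KO libraries, and no methylation was measured.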

How the data were processed

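From the study's methods and GEO's labels, the authors made poly-A libraries with a kit that does not mark strand, aligned reads to mouse build mm9 (NCBI37) and normalised gene counts with DESeq2. The submitters' processing notes name CASAVA 1.7 and 1.8, TopHat2 2.0.10, HTSeq 0.5.4p3 and DESeq2 1.0.19. The deposited values are a normalised signal, a gene's read count after division by the library's size factor. In each library 100% of values were whole multiples of 1 step per library (tolerance 0.01 reads), which gave back reads and depth, 22442118 to 40711826 reads in genes.

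The main test was limma 3.58.1 (R 4.3.3) on log2(normalised count + 1), with a mean for each of 8 groups over 16 libraries, a spread shared by the groups (8 residual and 4.27 prior degrees of freedom), eBayes with trend, and Benjamini-Hochberg adjustment over the 16124 genes with a mean of at least 10. The threshold was 0.05. This scale understates the change of low genes. KO was compared with WT at each stage, EB4 with ES and EB8 with EB4 within each genotype, and these changes between genotypes. The alternatives were DESeq2 1.42.0 (the tool of the study) and edgeR 4.0.16 (quasi-likelihood) on the recovered reads, pseudocounts of 0.1 and 5, other filters and scalings, a fit of only the compared groups, a replicate block, an estimated correlation, a threshold of 0.01, a log2 change of at least 1, and leaving out each library. On the recovered reads edgeR called 0 genes in ES cells, 811 at EB4, 603 at EB5 and 3546 at EB8 between KO and WT. The test was checked on simulated data.

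The members and gene lists were chosen with earlier results of these data known. All 10 members are named, and of the lists of imprinted, IGF pathway and imprint maintenance genes the called genes with the largest changes between genotypes, at most 3 each way. Other named genes of these lists and the named cell type markers were chosen after their values were seen, and marker lists are given mainly as sums. For each member, similar genes were found by Pearson's r. Gene positions and exon lengths are from GENCODE M1 on NCBI37, which held 27603 of the 27807 gene identifiers, and sequences are from RefSeq on GRCm38.p6, a build with other positions. Python 3.11.15 was used for the other steps.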

Additional observations from a re-analysis of the deposited data

How the results depend on the processing

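No alternative turned a call of a member into its opposite. The counts of called members from EB4 to EB8 stayed within 1.5 times of 7, from 6 to 8 in WT and from 5 to 9 in KO, and those of the tests between genotypes of a change stayed at 0. KO against WT in ES cells gave 0 members, and 1 with DESeq2. At EB4 it gave 1, but 0 with no filter on low values, with only the compared groups or at a threshold of 0.01, and 0 to 1 when 1 library was left out. At EB8 it gave 2, but 1 with a pseudocount of 0.1, no filter, only the compared groups or an estimated correlation within genotype and replicate number, 0 at a threshold of 0.01, and 0 to 2 when 1 library was left out. From ES to EB4 the count of 3 in WT became 0 with only the compared groups, 1 at a threshold of 0.01 and 1 to 3 without 1 library, and 4, with Snrpn, with a mean of at least 50, either block, an estimated correlation, edgeR or DESeq2. The count of 0 in KO became 1 with a pseudocount of 0.1 and 2 under upper-quartile rescaling, a mean of at least 50, a replicate block within genotype, an estimated correlation or DESeq2. The cause was not tested.

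With the replicate number as a block, EB8 gave 1 member, since H19 had a limma adjusted p of 0.0514, and the other KO against WT counts did not move. With the KO numbers exchanged at EB5 and EB8, a setting added after the data were seen, EB8 also gave 1. Differences between replicates 1 and 2 correlated over genes between KO and WT at 0.335 (ES), -0.058 (EB4), -0.209 (EB5) and -0.133 (EB8). Between ES and EB4 the correlation was -0.076 in WT and 0.389 in KO, and between EB4 and EB8 0.523 and 0.373. The labels do not tie a number to a line, so no pairing was assumed. Most of the correlations within genotypes were positive, and replicate 1 of every KO group had the chromosome 11 shift of 0.16 to 0.27 log2 units. Whether a number is the same line at every stage was not tested. The block within genotype called Cdkn1c from EB4 to EB8 in WT (limma adjusted p 0.012) and in KO (0.0175), which the fit without it did not.

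Counts over all genes moved more. KO against WT called 0 genes in ES cells (1846 at an unadjusted p below 0.05), 0 to 121 without 1 library, 18 with the block, 19 under upper-quartile rescaling and 469 with DESeq2. At EB4 the count was 986, 609 without the filter, 0 with only the compared groups, 2077 with DESeq2, and 0 to 753 without 1 library (0 without KO EB4 replicate 2). At EB5 it was 700, and 447, 72 and 1719 under the first 3 of these, with 0 to 525 without 1 library (0 without KO EB5 replicate 2). At EB8 it was 3697, and 1907 to 2408 without 1 library, and upper-quartile rescaling turned 1677 higher and 2020 lower into 2278 and 1615. From ES to EB4 it was 2668 in WT, with 0 for only the compared groups and 1289 to 2180 without 1 library, and 564 in KO, with 23 for only the compared groups, 2 to 81 without 1 library, 310 without the filter, 361 with quantile normalisation, 1291 with the block within genotype and 1668 with DESeq2. From EB4 to EB8 it was 4392 in WT and 2988 in KO, with 2488 to 3774 and 1293 to 1638 without 1 library and, in KO, 1689 for only the compared groups. The difference between genotypes of this change was called for 444 genes, with 218 for only the compared groups, 115 to 304 without 1 library and 1063 by DESeq2. Counting depth limits Dlk1 at EB4, which rests on 33 to 63 reads.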
